A study of Mus musculus with 7 samples.

Results

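The plasminogen activation genes examined here were 7 of the 24421 gene symbols in the deposited count table: the proteases Plau and Plat, the receptor Plaur, and the serpins Serpine2, Serpinb2, Serpinf1 and Serpinf2. They were chosen by name, with earlier results of these data known, and each symbol matched 1 row. Messenger RNA had been measured in 7 libraries of sorted BALB/c mouse stroma. The pCAF group (3 libraries) held cancer-associated fibroblasts from tumors that grew to 1 cm after orthotopic injection of 100000 4T1-luc cells, a luciferase-carrying mammary carcinoma line, into the mammary fat pad of female mice that were 8 weeks old at injection. The NMF group (4 libraries) came from the normal mammary fat pad of untreated mice labelled as 12 weeks old, which the series text calls age matched. Tumors and fat pads were digested with different collagenase mixes, which cannot be told apart from the groups. Both sorts removed Ter119, CD45 and EpCAM positive cells, and the pCAF sort alone also kept PDPN (podoplanin) positive cells, so NMF holds every stromal cell type without those 3 markers. The selection field of pCAF replicate 3 reads PDPN negative, against its source name, and its Pdpn level is given below. Without that library Plaur, Serpine2 and Serpinb2 still passed the test described below (adjusted p from 2.89e-04 to 0.00389). The sample titles call the libraries biological replicates, but no label names the animals behind them. The p-values below therefore reflect only how much these libraries vary.

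Plasminogen is a circulating zymogen that is cut to plasmin, a protease that dissolves fibrin and degrades matrix proteins. Urokinase (Plau) does this at the cell surface, where it is held by its receptor (Plaur), and tissue plasminogen activator (Plat) does it mainly on fibrin. Serpins are mostly inhibitors that trap serine proteases: protease nexin 1 (Serpine2) blocks urokinase, tissue plasminogen activator and thrombin, plasminogen activator inhibitor 2 (Serpinb2) blocks urokinase, and alpha-2-antiplasmin (Serpinf2) blocks plasmin. Serpinf1 encodes PEDF, a secreted serpin without inhibitory activity that is known for restraining blood vessel growth. Fibroblasts of wounds and tumors are known producers of several of these proteins.

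Total counts per library ran from 1885039 to 4990070. Across genes, Pearson's r of log2 levels was 0.83 to 0.974 for pairs of pCAF libraries, 0.892 to 0.965 for pairs of NMF libraries and 0.621 to 0.735 for mixed pairs. The outlying library of each group was pCAF replicate 1 and NMF replicate 4, and results that rest on them are given with and without them. pCAF replicate 1 had the fewest genes detected, 11090 at 2184389 counts, against 13222 to 14353 in the other libraries. Libraries read only the 3' ends of transcripts, so levels were not divided by transcript length. They are CPM, that is counts scaled to the library size after adjustment by TMM factors (edgeR's scaling between libraries). All 10 fibroblast markers were detected in both groups, with a summed level of 74518 to 85965 CPM in pCAF and 24703 to 44809 CPM in NMF. Pdpn, the gene of the sort marker, stood at 987, 281 and 384 CPM in pCAF replicates 1 to 3 and at 44.1 to 58.4 CPM in NMF.

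The urokinase receptor and a pair of serpins were higher in the tumor fibroblasts, while the transcripts of both plasminogen activators did not pass the test. Plaur was 5.61-fold, Serpine2 10.2-fold and Serpinb2 64.99-fold higher in pCAF than in NMF. Plau, Plat and Serpinf1 did not pass, and Serpinf2 was close to the limit of detection. Thus 3 of the 6 members with enough counts to be tested were higher at an adjusted p under 0.05 (edgeR's quasi-likelihood test), where 14.3% of the 10535 tested genes were higher, and none was lower, where 14.2% of all tested genes were (28.4% in either direction). DESeq2 gave the same 3 and 0 (16.9% and 17.9% of all genes), as did limma-voom (14.0% and 13.2%). At an unadjusted p under 0.05 edgeR had 4 members higher and 0 lower, where 4221 of the 10535 tested genes passed in either direction. Without pCAF replicate 1 the members had 4 higher and 1 lower (18.3% and 19.8% of all genes), and likewise without both outlying libraries (25.9% and 26.9%); library totals as the scaling gave 1 lower (18.1%). Serpinb2 passed the low-count filter through its pCAF libraries alone. In bulk RNA, fewer cells of a type and less RNA per cell cannot be told apart.

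**Figure D1:**
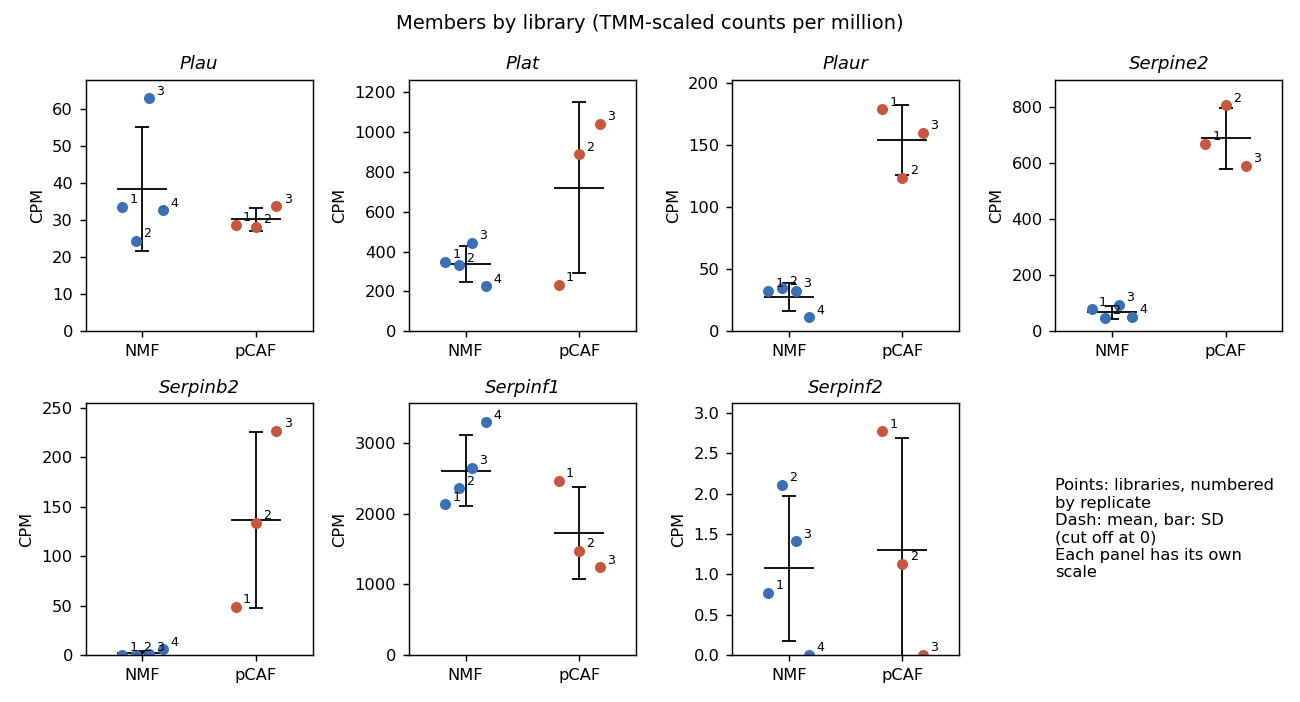
Level of each of the 7 members (y axis, CPM scaled with TMM factors, own scale per panel) in the 4 NMF and 3 pCAF libraries, each point a library numbered by replicate, with the group mean as a dash and the SD as a bar. Plaur, Serpine2 and Serpinb2 are above every NMF library in all 3 pCAF libraries, and the other 4 overlap.

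The promoters of the members whose levels differed most or that were most abundant are shown here, because the members did not move together and their start regions can be set side by side. RefSeq's promoter table (GRCm38.p6) held 5 of the 7 members, and Plau and Plat were not among them. Each run is the 250 bases before the annotated start, 5' to 3' on the gene's own strand: Plaur chr7:24462233-24462482 (plus strand), Serpine2 chr1:79858666-79858915 (minus), Serpinb2 chr1:107511173-107511422 (plus, the first of 2 listed starts) and Serpinf1 chr11:75422624-75422873 (minus). The RefSeq starts used here differ for some members from the gene positions given below, which are from GENCODE. The Serpine2 window lies inside the GENCODE gene, and the Serpinf1 and Serpinf2 windows overlap the 5' end of theirs. Capitals mark matches on either strand to 4 motifs. These were the AP-1 motif, spelled TGANTCA, the motif of RUNX factors (which the series title names), spelled TGTGGT, the box rich in G and C that Sp1 binds, called GC box here and spelled GGGCGG, and the TATA box, which was searched as TATAAA.
Plaur: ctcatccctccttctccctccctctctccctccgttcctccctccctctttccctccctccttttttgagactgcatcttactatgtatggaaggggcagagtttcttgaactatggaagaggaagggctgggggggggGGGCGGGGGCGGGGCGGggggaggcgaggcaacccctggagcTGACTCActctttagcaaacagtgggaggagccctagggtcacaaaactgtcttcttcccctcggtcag
Serpine2: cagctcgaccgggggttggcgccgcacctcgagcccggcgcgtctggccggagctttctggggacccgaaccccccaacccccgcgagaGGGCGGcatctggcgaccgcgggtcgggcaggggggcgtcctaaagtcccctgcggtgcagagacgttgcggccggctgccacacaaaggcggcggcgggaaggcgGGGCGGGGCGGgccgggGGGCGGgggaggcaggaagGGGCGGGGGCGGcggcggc
Serpinb2: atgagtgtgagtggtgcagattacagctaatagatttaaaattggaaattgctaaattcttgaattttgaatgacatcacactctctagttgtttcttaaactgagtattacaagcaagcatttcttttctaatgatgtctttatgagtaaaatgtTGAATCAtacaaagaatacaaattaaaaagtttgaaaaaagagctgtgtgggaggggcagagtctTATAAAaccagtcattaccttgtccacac
Serpinf1: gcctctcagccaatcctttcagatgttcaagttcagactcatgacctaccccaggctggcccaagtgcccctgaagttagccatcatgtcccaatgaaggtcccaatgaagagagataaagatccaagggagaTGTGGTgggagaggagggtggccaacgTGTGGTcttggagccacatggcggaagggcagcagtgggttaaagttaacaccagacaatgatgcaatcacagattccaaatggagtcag

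Plaur had 1 AP-1 match, 69 to 63 bases before the start, and 3 GC boxes, of which 1 pair overlapped. Serpine2 had 6 GC boxes, with 1 overlapping pair, in a window of 78.8% G and C. Serpinb2 had 1 AP-1 match and a TATA box 29 to 24 bases before its start, in a window of 32.4% G and C. Serpinf1 had 2 RUNX matches, 117 to 112 and 90 to 85 bases before the start. In the window of Serpinf2 none of the 4 motifs was found. Of all 32851 listed promoter windows of this length, 6.75% held the AP-1 letters, 14.0% the RUNX letters, 32.7% a GC box and 12.4% TATAAA, each counted as at least 1 match. The matches are descriptions of the letters and not of binding.

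Plau, the gene of urokinase (mm10 chromosome 14, 20836660 to 20843385, plus strand), was expressed at a low level in both groups. It stood at 28.8, 28.2 and 33.8 CPM in pCAF replicates 1 to 3 and at 33.6, 24.5, 63.01 and 32.7 CPM in NMF replicates 1 to 4. The pCAF values lay within the NMF range, and NMF replicate 3 was the highest of the 7 libraries. The means were 30.3 ± 3.08 CPM (SD, n = 3) and 38.4 ± 16.9 CPM (SD, n = 4), and the log2 fold change of -0.34 (SE 0.36) did not pass (adjusted p = 0.516). Without NMF replicate 3 the log2 fold change was 0.0045 (adjusted p = 0.994).

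Plat, the gene of tissue plasminogen activator (chromosome 8, 22757727 to 22782844, plus strand), was the more abundant activator in every library. It stood at 233, 890.0 and 1043 CPM in pCAF and at 349, 331, 443 and 225 CPM in NMF. pCAF replicates 2 and 3 were above every NMF library, but replicate 1 lay within the NMF range. With means of 722 ± 430 CPM (SD, n = 3) and 337 ± 89.5 CPM (SD, n = 4), Plat had a log2 fold change of 1.10 (SE 0.45) and did not pass (adjusted p = 0.0953). Without pCAF replicate 1 it was 2.86-fold higher and passed (adjusted p = 0.00184), and so it did without both outlying libraries (adjusted p = 6.91e-06). The Plat result thus rested on 1 library. Plat is also made by endothelial cells, and blood endothelial markers were lower in pCAF, at a summed 126 to 280 CPM against 2208 to 3558 CPM in NMF (12 of 12 markers lower, Sox17 at 0 in pCAF). Their part in the Plat level was not tested.

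Plaur, which encodes the urokinase receptor (chromosome 7, 24462484 to 24475968, plus strand), rose in pCAF. It stood at 179, 124 and 160.2 CPM in pCAF and at 32.8, 34.6, 32.4 and 11.2 CPM in NMF. Every pCAF library was above every NMF library, the lowest pCAF value being 3.58 times the highest NMF value, and NMF replicate 4 was the lowest of all. Such a gap between the groups, with pCAF above, was found in 19.0% of all tested genes, and the reverse in 21.4%. The mean was 154 ± 28.1 CPM (SD, n = 3) against 27.8 ± 11.1 CPM (SD, n = 4), a log2 fold change of 2.49 (SE 0.38, adjusted p = 0.00109). Over the 16 alternative fits, all of which called it, the fold ran from 4.24 to 6.42. Macrophages and neutrophils carry the urokinase receptor. The macrophage marker list was at a summed 46.6 to 98.6 CPM in pCAF against 47.4 to 329 CPM in NMF. In that list Ptprc, which encodes CD45, and Adgre1 were at 0 in pCAF, 5 of 8 tested markers were lower there and none was higher, with Csf1r at 16.5 ± 9.25 CPM against 7.15 ± 4.86 CPM in NMF (adjusted p = 0.154). The part of such cells in the Plaur level was not tested.

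Serpine2, the gene of protease nexin 1 (chromosome 1, 79794197 to 79861180, minus strand), rose with the smallest relative spread within pCAF among the 3 called members. It stood at 669, 807 and 590.3 CPM in pCAF and at 77.6, 47.3, 93.6 and 50.4 CPM in NMF. The groups were far apart, the lowest pCAF library lying at 6.30 times the highest NMF library. The mean was 689 ± 110 CPM (SD, n = 3) against 67.2 ± 22.3 CPM (SD, n = 4), with a log2 fold change of 3.36 (SE 0.32, adjusted p = 7.36e-05). It was called in all 16 alternative fits, with folds of 8.71 to 11.9. Serpine2 and Plaur resembled each other more closely over the 7 libraries than any other pair with a called member, with a root mean square difference of 0.66 between their centred log2 CPM values.

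Serpinb2, the gene of plasminogen activator inhibitor 2 (chromosome 1, 107511423 to 107535478, plus strand), went from near 0 in NMF to a moderate level in pCAF. It held 88, 238 and 410 counts in pCAF replicates 1 to 3, or 48.8, 134 and 227 CPM. In NMF replicates 1 to 4 it held 0, 0, 2 and 31 counts, so that 31 of the 33 NMF counts came from replicate 4. The groups did not overlap, and pCAF replicate 1 was the lowest of its group. The mean was 137 ± 89.3 CPM (SD, n = 3) against 1.62 ± 2.80 CPM (SD, n = 4), a log2 fold change of 6.02 (SE 0.94, adjusted p = 0.00117). The size of this rise depended on NMF replicate 4. From pooled counts, pCAF held 54.5 times the NMF level with all libraries (95% counting interval 38.5 to 79.8). Without NMF replicate 4, with 2 NMF counts left, this ratio was 533 (95% counting interval 147 to 4411). The edgeR fit gave 64.99-fold with all libraries and 440.5-fold without NMF replicate 4 (adjusted p = 6.25e-04). The 3' end of its transcripts overlaps exons of Serpinb10, its neighbour on the same strand, and Serpinb10 was listed at 0 in all 7 libraries.

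Serpinb2 is also a known product of macrophages and mesothelial cells, which line body cavities. Macrophage markers are given above. Of the mesothelial marker list, 5 of 6 genes were in the table and 3 of 4 tested were higher in pCAF, at a summed 128 to 173 CPM against 9.90 to 27.4 CPM in NMF, with Lrrn4 and Upk1b at 0 in NMF. Mesothelial and Serpinb2 transcripts were thus both higher in the pCAF group. Within it their order differed, with mesothelial sums of 170, 128 and 173 CPM in replicates 1 to 3 and Serpinb2 at 48.8, 134 and 227 CPM. The part of such cells was not tested.

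Serpinf1, which encodes PEDF (chromosome 11, 75409769 to 75422701, minus strand), was the most abundant member in every library. It stood at 2466, 1472 and 1242 CPM in pCAF and at 2138, 2363, 2651 and 3300 CPM in NMF. pCAF replicates 2 and 3 were below every NMF library, while replicate 1 lay within the NMF range. The means were 1727 ± 650 CPM (SD, n = 3) and 2613 ± 504 CPM (SD, n = 4), and the log2 fold change of -0.60 (SE 0.31) did not pass (adjusted p = 0.185). It passed as lower without pCAF replicate 1 (log2 fold change -0.95, adjusted p = 0.0160), without both outlying libraries (-0.82, adjusted p = 8.72e-04) and with library totals as the scaling (-0.86, adjusted p = 0.0478). Adipocyte markers, which the NMF sort did not exclude, summed to 19.4 to 63.7 CPM in pCAF and 1986 to 15577 CPM in NMF (6 of 6 tested lower, with Plin1, Cidec, Lep and Pck1 at 0 in pCAF). Fabp4 made up most of the NMF sum, at 1577 to 15228 CPM, and Plin1 and Lep held only 11 and 9 counts over NMF. The part of adipocytes in the Serpinf1 level was not tested.

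Serpinf2, the gene of alpha-2-antiplasmin, which the liver is known to secrete, lies 9030 bp from Serpinf1 on chromosome 11 (75431732 to 75439591, minus strand). The neighbours had unlike levels. Serpinf2 held 5, 2 and 0 counts in pCAF and 2, 5, 4 and 0 counts in NMF, too few for the fit. The group means were 1.30 ± 1.39 CPM (SD, n = 3) and 1.07 ± 0.900 CPM (SD, n = 4). An exact two-sided permutation test of the mean log2 CPM gave p = 0.914, where the smallest p that 3 against 4 libraries allow is 0.0571. A difference was not detectable at this depth, the counting interval of the pCAF to NMF ratio running from 0.511 to 4.39.

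**Figure D2:**
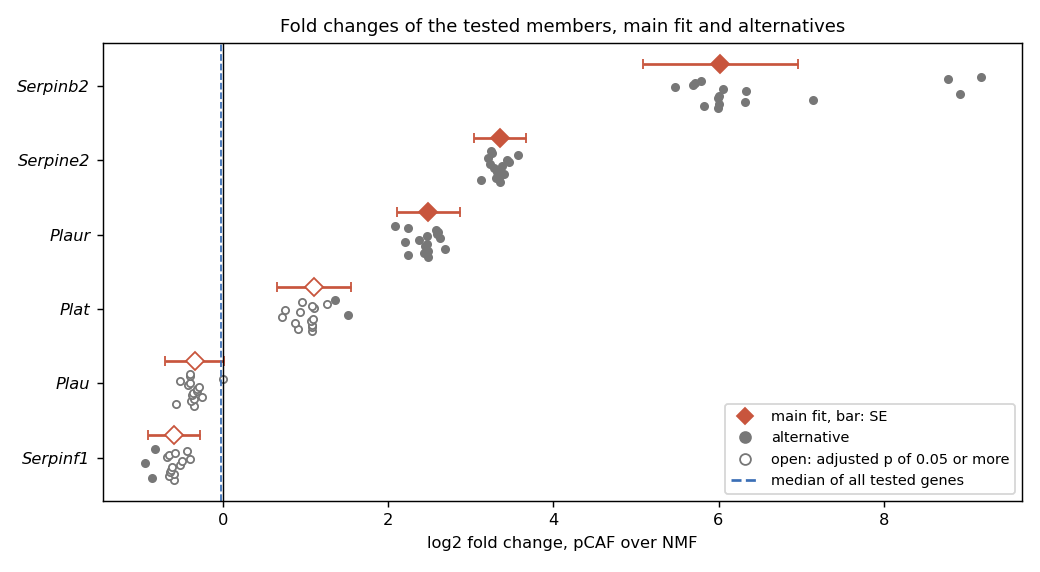
Log2 fold change of pCAF over NMF (x axis) for the 6 tested members (y axis), with the edgeR fit as a diamond with its SE and the alternative fits as circles, open where the adjusted p was 0.05 or more. Plaur, Serpine2 and Serpinb2 are filled throughout, Plat and Serpinf1 are filled in 2 and 3 of 16 alternatives, and Plau is open throughout.

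The order of the levels differed between the groups. In pCAF it ran from Serpinf1 (1727 CPM) over Plat (722), Serpine2 (689), Plaur (154), Serpinb2 (137) and Plau (30.3) to Serpinf2 (1.30), all as mean CPM. Plat and Serpine2 overlapped between libraries, as did Plaur and Serpinb2, so these neighbours were not separated, whereas the other neighbouring levels did not overlap. In NMF the order was Serpinf1 (2613 CPM), Plat (337), Serpine2 (67.2), Plau (38.4), Plaur (27.8), Serpinb2 (1.62) and Serpinf2 (1.07). There, Serpine2 overlapped with Plau across libraries but was above it within each of the 4, Plau overlapped with Plaur and was above it in 3 of 4, and Serpinb2 overlapped with Serpinf2. Of all counts of the 7 members, Serpinf1 took 80.7% to 91.0% in NMF libraries and 37.7% to 68.0% in pCAF libraries, and Serpine2 took 1.39% to 2.95% and 17.9% to 23.4%.

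Ratios of 2 members within a library do not depend on the scaling between libraries. They are given as descriptions, with no test. The log2 ratio of Plau to Serpine2, protease to inhibitor, was -4.52, -4.83 and -4.11 in pCAF and -1.20, -0.94, -0.57 and -0.62 in NMF, so every pCAF library held less urokinase transcript per protease nexin 1 transcript. The log2 ratio of Plau to its receptor Plaur was -2.62, -2.13 and -2.23 in pCAF and 0.03, -0.50, 0.96 and 1.54 in NMF, again without overlap. That of Serpine2 to Serpinf1 was -1.88, -0.87 and -1.07 in pCAF and -4.78, -5.64, -4.82 and -6.03 in NMF. The log2 ratio of the activators, Plau to Plat, was -3.002, -4.97 and -4.94 in pCAF and -3.37, -3.74, -2.81 and -2.78 in NMF. Here pCAF replicate 1 lay within the NMF range.

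**Figure D3:**
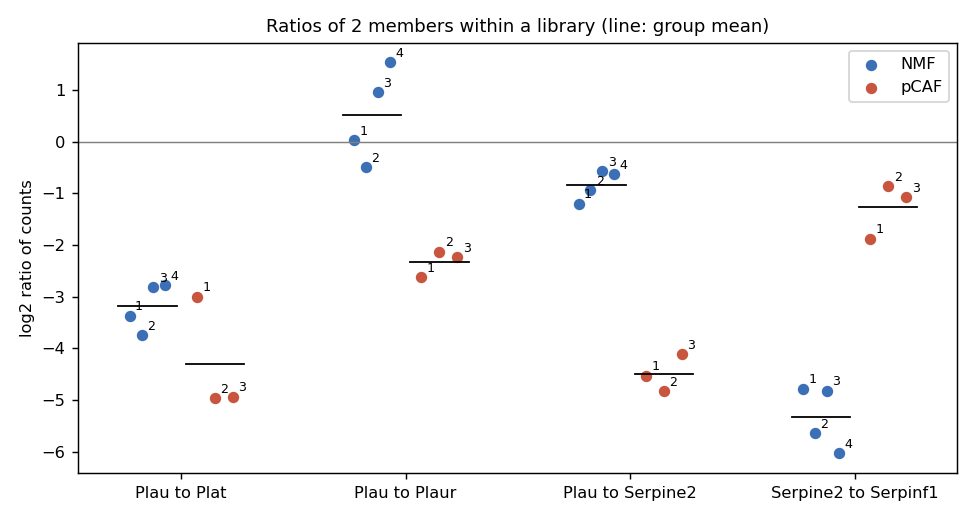
Log2 ratio of the counts of 2 members within each library (y axis) for 4 pairs (x axis), in NMF (blue) and pCAF (red), points numbered by replicate, with the group mean as a line. The groups do not overlap for Plau to Plaur, Plau to Serpine2 and Serpine2 to Serpinf1, and they overlap for Plau to Plat.

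The genes most like each member over the 7 libraries were sought among the 3503 tested genes averaging 50 CPM or more, by the root mean square difference of centred log2 CPM values. For Plaur these were Tnfrsf12a (0.24), the receptor of the cytokine TWEAK, and Ifrd1 (0.25). Mical2 (0.23), an enzyme that oxidises actin, and Tnfaip2 (0.34) were nearest to Serpine2. For Serpinb2 the nearest, at a larger distance, was Inhba (0.75), the activin A subunit. Plat was nearest to the chaperonin subunit Cct4 (0.17) and the coat protein gene Sec13 (0.19), Plau to Pmm1 (0.22) and Dbn1 (0.22), and Serpinf1 to Grn (0.11), which encodes progranulin, and Ak3 (0.14). Since each gene was centred on its own mean, these distances describe only likeness of pattern over the libraries, with the group difference included, and not of level.

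Of a list of 31 other serpins, 10 had enough counts to be tested, 4 of them rose, 3 fell and 3 did not pass, where 14.3% of all tested genes rose and 14.2% fell. Serpinb6b among those that rose, and 2 of the 3 that fell, passed the low-count filter through the group where they were high, and these counts therefore describe the list without setting it apart. The median log2 fold change was 1.14, against -0.02 over all tested genes. Serpina3n, an inhibitor of serine proteases of immune cells, rose 6.77-fold, from 169 ± 53.0 to 1145 ± 81.1 CPM (adjusted p = 1.93e-04). Serpina3g rose 10.9-fold (adjusted p = 2.29e-04), Serpinb1a, an inhibitor of neutrophil proteases, 3.12-fold (adjusted p = 0.00134) and Serpinb6b 19.3-fold (adjusted p = 9.47e-04), or 12.8-fold without pCAF replicate 3. Serpinb6b shares a near-identical 3' end with Serpinb6c, so its share of reads is uncertain. Serpinh1, the collagen chaperone HSP47, averaged 2290 ± 1447 CPM in pCAF and 1047 ± 333 CPM in NMF (adjusted p = 0.108). pCAF replicate 1 had only 659 CPM, and leaving it out made Serpinh1 pass (adjusted p = 0.00219). Serping1, the C1 inhibitor of complement, was at 4798 ± 3679 against 3237 ± 689 CPM (adjusted p = 0.373), and its direction turned without pCAF replicate 1 (log2 fold change -0.28).

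Of 19 genes whose products bind plasminogen or hold or clear the urokinase receptor, 14 were tested, of which 3 rose, 1 fell and 10 did not pass, with a median log2 fold change of 0.02. These 4 calls are near the 28.4% called in either direction over all tested genes. Plg itself, the gene of plasminogen, had too few counts to be tested, at a mean of 0.188 CPM in pCAF and 1.07 CPM in NMF. Eno1, listed at 0 in all 7 libraries, and Hmgb1, at 0 to 13 counts per library, were not tested either. Stretches within their 3' ends matched 4 and 59 other genes under the search limits given below. The part of such matches in their low counts was not tested. Anxa2, a plasminogen binding annexin, was at 2018 ± 1443 against 1041 ± 259 CPM (adjusted p = 0.123), with 3680 CPM in pCAF replicate 1 and 1284 and 1090.3 CPM in the others. Lrp1, the scavenger receptor that clears urokinase bound to inhibitors, was at 1436 ± 277 against 931 ± 253 CPM (adjusted p = 0.129) and passed once NMF replicate 4 was left out (adjusted p = 0.0336), also together with pCAF replicate 1 (0.00327). Vldlr, a receptor that also takes up urokinase bound to inhibitors, passed the filter through NMF alone and fell 4.60-fold (adjusted p = 0.0177), a call lost with the replicate block (adjusted p = 0.0598). Itga5, the fibronectin receptor subunit, rose 4.19-fold (adjusted p = 0.00790), or 2.63-fold without pCAF replicate 1. Itgb1, its partner, rose 1.79-fold (adjusted p = 0.0355), a call lost without pCAF replicate 2 or 3 or NMF replicate 1, 2 or 3 (adjusted p from 0.0720 to 0.109), and with library totals (0.110) or no filter (0.0630).

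Of 21 genes of coagulation and fibrin, 11 were tested, of which 5 rose, 4 fell and 2 did not pass (median log2 fold change 0.46), against 14.3% and 14.2% of all tested genes. Of these, 2 that rose and 2 that fell, F2rl1 and Vwf among them, passed the low-count filter only through the group where they were high. Tfpi2, an inhibitor of plasmin and of tissue factor complexes, rose 7.19-fold, from 21.1 ± 4.97 to 152 ± 14.3 CPM (adjusted p = 7.15e-05). F2r, the main thrombin receptor, rose 6.75-fold, from 36.6 ± 11.2 to 249 ± 22.8 CPM (adjusted p = 1.27e-04). Thus F2r and Serpine2, whose product inhibits thrombin, were both higher in every pCAF library. F2rl1, a receptor that trypsin-like proteases activate, rose 39.5-fold from 0 to 4 counts per NMF library (adjusted p = 6.71e-04; 60.5-fold without NMF replicate 4). Among the genes that fell were anticoagulant surface proteins that endothelial cells carry: Thbd (thrombomodulin) fell 3.76-fold (adjusted p = 0.00203) and Procr 2.32-fold (adjusted p = 0.0135, lost without pCAF replicate 2, 0.0650). Other anticoagulant genes did not fall: Pros1, the gene of protein S, rose 2.70-fold (adjusted p = 0.00975). Tfpi did not pass, at a log2 fold change of 0.46 (adjusted p = 0.386). Vwf, an endothelial marker, held 8 counts in pCAF, all in replicate 1, against 365 to 1422 per NMF library. The endothelial markers given above were lower in the same libraries, and their part was not tested.

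Of 14 genes whose products urokinase, tissue plasminogen activator or plasmin are known to cleave, 11 were tested, 4 rose, 1 fell and 6 did not pass (median log2 fold change 0.74), against 14.3% and 14.2% of all tested genes. Tgfb1, a growth factor secreted in latent form, rose 4.003-fold, from 32.9 ± 7.05 to 131 ± 38.6 CPM (adjusted p = 8.32e-04). Mmp3, a proenzyme that plasmin activates, rose 3.98-fold, from 176 ± 75.2 to 703 ± 192 CPM (adjusted p = 0.00248). The metalloproteinases Mmp9 and Mmp13 also rose, Mmp9 from 1.57 ± 0.857 to 68.9 ± 25.4 CPM (adjusted p = 6.09e-05) and Mmp13 from no NMF count to 515 counts over pCAF (adjusted p = 1.24e-04). These 2 of the 4 substrates that rose passed the filter through pCAF alone. Mmp2 was at 2359 ± 490.4 against 1770 ± 243 CPM (adjusted p = 0.268) and Fn1, fibronectin, at 6478 ± 114 against 4854 ± 1548 CPM (adjusted p = 0.339). Stretches within the searched Fn1 3' end matched 12 other genes under the search limits given below. Whether the whole 3' ends are alike was not tested. Hgf, whose product urokinase can activate, had too few counts to be tested.

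Of 19 other secreted or membrane-bound serine proteases, 11 were tested, of which 1 rose, 6 fell and 4 did not pass, with a median log2 fold change of -1.07, where 14.3% of all tested genes rose and 14.2% fell. Of the 6 that fell, 3, with Dpp4 and Cfd among them, passed the filter only through NMF. Dpp4, a surface peptidase, fell 6.73-fold (44.1 ± 12.5 to 6.51 ± 2.78 CPM, adjusted p = 0.00119). The complement protease C1ra fell 2.66-fold (475 ± 29.5 to 179 ± 24.3 CPM, adjusted p = 0.00183), and Pcsk6, a proprotein convertase, 7.44-fold (adjusted p = 0.00504), or 12.3-fold without pCAF replicate 1 and 4.90-fold without NMF replicate 4. Cfd, the adipocyte product adipsin, held 2 counts over pCAF and 3015 over NMF. C1s1 was at 822 ± 314 against 974 ± 261 CPM (adjusted p = 0.620), with a 3' end much like that of C1s2, while Htra1 averaged 510.2 ± 252 CPM in pCAF and 853 ± 115 CPM in NMF (adjusted p = 0.127). Htra1 passed when pCAF replicate 1 was left out (adjusted p = 0.00316) and with library totals (0.0325).

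**Figure D4:**
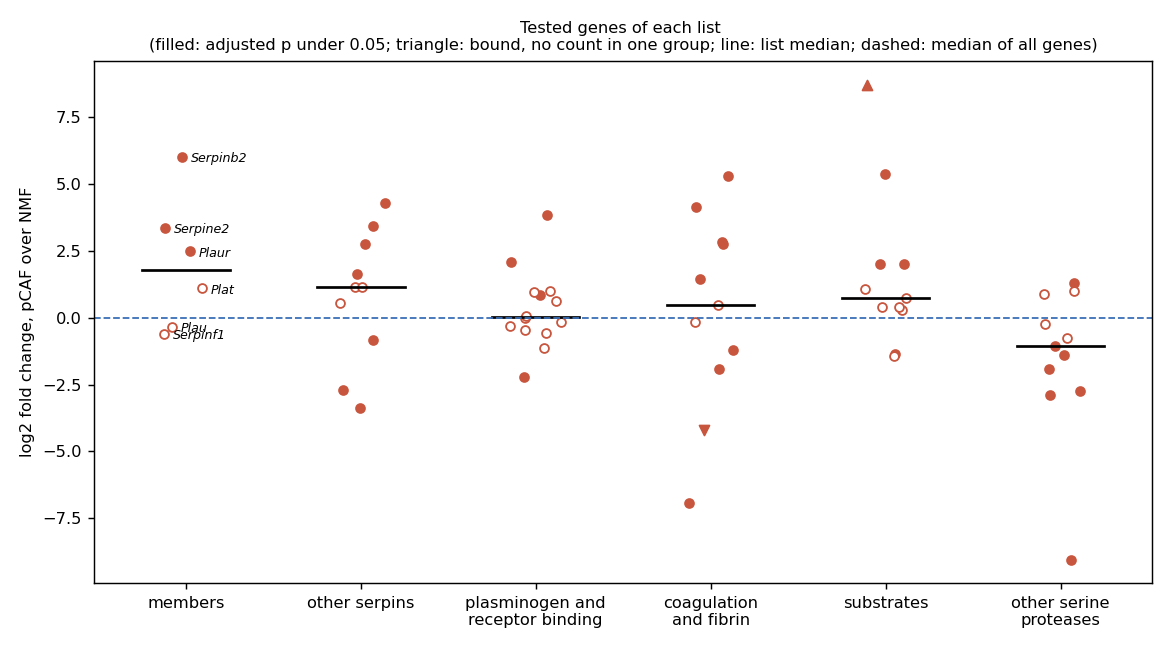
Log2 fold change of pCAF over NMF (y axis) of the tested genes of the members and of 5 lists (x axis), filled where the adjusted p was under 0.05, with the list median as a line, the median of all tested genes as a dashed line and triangles for bounds of genes with no count in a group. The list medians run from -1.07 for other serine proteases to 1.79 for the members.

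The remaining marker lists also differed. Schwann cell markers summed to 4.99 to 16.3 CPM in pCAF and 259 to 1011 CPM in NMF (5 of 5 tested lower, Sox10 and Cdh19 at 0 in pCAF). Epithelial markers were at 107 to 263 against 187 to 584 CPM (4 of 8 tested lower, Krt5 at 0 in pCAF), pericyte and smooth muscle markers at 261 to 436 against 375 to 569.97 CPM (1 of 8 higher, 3 lower) and lymphatic markers at 23.3 to 46.8 against 32.4 to 78.8 CPM (1 of 3 higher, 1 lower, Ccl21a at 0 in both). Neutrophil markers summed to 0.555 to 11.3 CPM in pCAF and 2.61 to 43.5 CPM in NMF (the 1 tested was lower, Cxcr2 and Csf3r at 0 in pCAF, Camp at 0 in NMF). The tested marker, Ltf, passed the filter through NMF alone and made up most of the NMF sum. The others had too few counts to be tested: Cxcr2 and Csf3r held only 1 and 4 counts over NMF, and Camp 2 over pCAF. Of the fibroblast markers, 6 of 10 tested were higher in pCAF and none lower at an adjusted p under 0.05. One of the 6 was Pdpn, which the pCAF sort selected for, and the collagen genes Col1a1, Col1a2 and Col3a1 made up most of the summed level. Pdgfra was at 208 ± 27.2 against 201 ± 58.8 CPM (adjusted p = 0.916), and Dcn, which encodes decorin, was at 4653 ± 1219 against 8364 ± 2544 CPM (adjusted p = 0.0736), below every NMF library in all 3 pCAF libraries. Of the markers of other cell types, those lower in pCAF had passed the filter through NMF alone for all 5 macrophage and 5 Schwann cell markers, 9 of 12 endothelial and 5 of 6 adipocyte markers, and the 3 higher mesothelial markers had passed through pCAF alone.

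**Figure D5:**
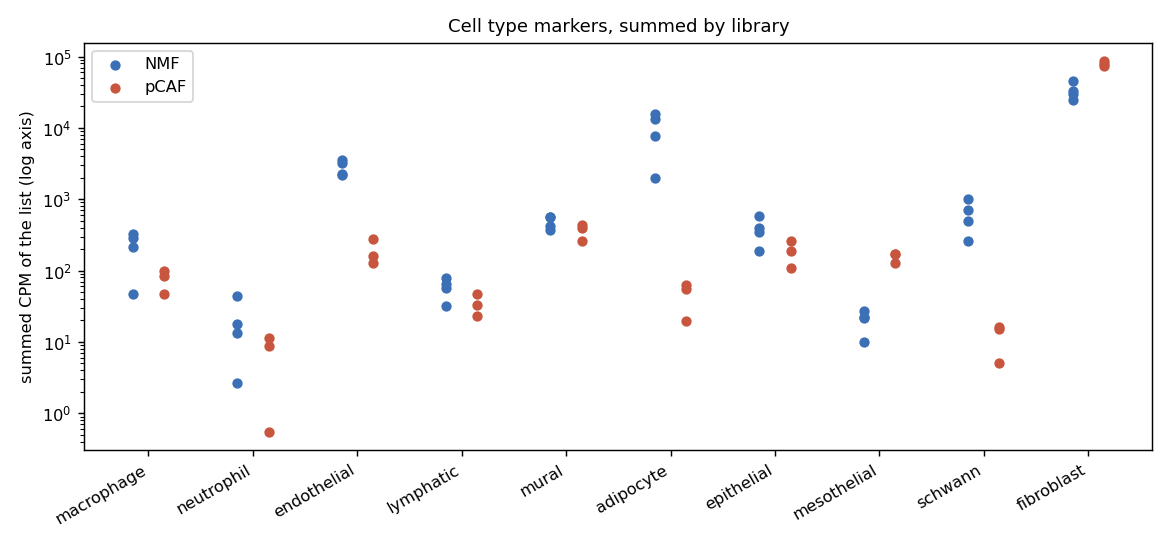
Summed CPM of each cell type marker list (x axis) in each library (y axis, log scale), NMF in blue and pCAF in red. Endothelial, adipocyte and Schwann cell markers are lower in every pCAF library than in any NMF library, and mesothelial and fibroblast markers are higher.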

How the data were processed

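The deposited table held raw counts per gene symbol for 7 libraries of 3' end mRNA sequencing, which the authors did not scale. The submitters' processing notes name STAR 2.4.2a and HTSeq beside bcl2fastq and mm10, without roles. Gene annotation, strand setting and molecular identifiers: not given in the sources used here. Samples were grouped by title.

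The comparison used edgeR 4.0.16 (R 4.3.3) with genes kept by filterByExpr (10535 of 24421; a gene can pass through 1 group alone), TMM factors, robust quasi-likelihood F test, two-sided, Benjamini-Hochberg adjustment over all tested genes, threshold 0.05. CPM used the same effective library sizes; log2 CPM used a prior count of 2. The SE is the log2 fold change divided by the square root of F. Intervals cover counting error only, at 95%.

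The members and lists were chosen with earlier results of these data known. All members are named; of each of the 5 other lists, the 4 genes with the smallest adjusted p and the 2 most abundant that did not pass or went the other way; for each member, its 2 nearest genes. Plg, Hgf, Pros1, Tfpi, Eno1 and Hmgb1 were named after their values were seen. Not every gene within these rules, and not every serpin, is reported here. Positions are from GENCODE M21 (GRCm38); 3' ends were searched against all annotated transcripts by blastn 2.17.0 (80 bp or more, 95% identity). Alternatives were DESeq2 1.42.0, limma 3.58.1 (voom), other scalings and filters, the replicate block, each library left out, and pCAF replicate 1 and NMF replicate 4 left out together. The scripts were tested on simulated counts of 10535 genes, with 67, 67 and 66 genes changed 2-, 4- and 8-fold. Of these, edgeR called 8.96%, 49.3% and 77.3%. Fewer genes were changed there than were called in these data, so these shares may not hold here. A gene that did not pass can still differ between the groups.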

Additional observations from a re-analysis of the deposited data

Results flagged for a closer look

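In the 4 NMF libraries, some values stood far from the other 3, with a gap to the nearest one above Dixon's 95% critical value; chance gives this in about 1 in 20 groups, and 37 genes were looked at. All 4 cases were in NMF replicate 4, which also stood apart over all genes. Plaur was at 11.2 CPM there, against 32.4 CPM in the next lowest library, and Serpinb2 at 5.79 CPM, against 0.704 CPM in the next highest. Pcsk6 was at 610.1 CPM, against 249.9 CPM, and C1s1 at 1361 CPM, against 890.5 CPM.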

How the results depend on the processing

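Plaur, Serpine2 and Serpinb2 kept their direction and passed in all 16 alternatives. Leaving out 1 library at a time gave 1016 to 2021 genes higher in pCAF and 979 to 2187 lower over all genes, 0 to 1 members lower, and log2 fold changes of -0.52 to 0.0045 for Plau, 0.75 to 1.52 for Plat and -0.95 to -0.40 for Serpinf1; Serpinf2's difference in mean log2 CPM (0.07 in the full set) ran from -0.46 to 0.66, with -0.0028 when pCAF replicate 2 was dropped and -0.31 when NMF replicate 4 was. For the lists these fits gave 2 to 4 higher and 1 to 3 lower for binding and clearance, 2 to 4 lower for coagulation, 4 to 7 higher and 1 lower for substrates, 4 to 7 higher and 1 to 3 lower for other serpins and 0 to 2 higher for other proteases. The log2 fold change of Serping1 ran from -0.28, without pCAF replicate 1, to 0.86. Without pCAF replicate 1 and NMF replicate 4 together, 2802 genes were higher and 2913 lower, 1 member was lower, Plat had 1.36 and Serpinf1 -0.82, and Serping1 -0.14; binding and clearance then had 5 higher and 4 lower, substrates 8 and 2, other serpins 7 higher, other proteases 2 higher, and coagulation 5 lower. Library totals gave 1 member lower (Serpinf1, -0.86), a mean of at least 10 CPM 3 coagulation genes higher, no filter 7 other serpins higher, and DESeq2 2 substrates lower. The replicate block, for numbers that did not pair the libraries (r = -0.09, 0.08 and -0.01 after removing group means), gave 978 genes higher, 0 binding genes and 1 other serpin lower, and changed no member's call; its log2 fold changes were 2.20 for Plaur and 8.92 for Serpinb2, for which limma-voom gave 7.15 and the fit without NMF replicate 4 gave 8.78, against 6.02. The causes of these shifts were not tested. Depth limited Serpinf2, with 7 counts in pCAF and 11 in NMF.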
